A study of Mus musculus with 4 samples.

Results

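Complement is a cascade of proteins that tags particles for uptake and calls in inflammatory cells. Here 8 of its genes were followed in control and Rbpj-deficient bone marrow-derived dendritic cells (BMDC), Rbpj being the DNA-binding partner of Notch receptors. They were C1qa, C1qb and C1qc, the chains of the recognition protein C1q, then C3, Cfb and Cfp, the parts of the alternative pathway's C3 convertase, and C3ar1 and C5ar1, the receptors of the cleavage fragments C3a and C5a. Members were every probe on the arrays whose RefSeq accession maps to one of these symbols. That gave 9 probes of 39429, 2 of them for C3 and 1 for each other gene, and all 8 genes entered the test of 17974 genes.

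Marrow of female C57BL/6 mice, 8 weeks old, was grown for 6 days in 20 ng/mL GM-CSF, a cytokine that turns marrow precursors into dendritic cells, before CD11c+ cells were taken. Control cells came from Rbpj fl/fl mice (RFF). Rbpj-deficient cells came from Rbpj fl/fl x CD11c-cre mice (RFF11), so that the floxed alleles were shared by both groups and the cre, driven by the CD11c promoter, was present in the deficient group alone. Effects of the cre and of the loss of Rbpj cannot be told apart. RNA was pooled from 4 mice per genotype, and each group had 2 one-colour arrays. Since nothing says that the 2 arrays came from separate pools, the p-values cover the spread between these arrays alone, and it may be technical. They shared 1 slide, and effects of an array's place on it and of genotype cannot be told apart either.

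C1q binds immune complexes and dying cells and starts the classical pathway. C3 is the protein on which all the pathways converge, factor B (Cfb) supplies the protease that cleaves it in the alternative pathway, and properdin (Cfp) holds that enzyme together. Most complement in blood is made by the liver, while C1q and properdin come largely from myeloid cells, and immature dendritic cells are a known source of C1q.

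Between 55.2% and 58.4% of the 43020 spots for genes on each array were well above background. With 2 arrays a group, precision is low. Levels are log2 signal with the array's 75th percentile set to 0, so a level of 1 is a signal of 2-fold that percentile, and levels of different probes are not compared. Rbpj itself read lower on the deficient arrays (log2 change -1.25, SE 0.06, limma adjusted p = 0.0278). It kept 42.1% of the control signal there and was still well above background. The call on Rbpj was lost when dim probes were kept in (adjusted p = 0.26) or replicate numbers were fitted as pairs (0.101). Leaving out any 1 of the arrays lost it too. Itgax, which encodes CD11c, was far above background on all 4 arrays and stood at -0.11 (adjusted p = 0.523).

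None of the 8 complement genes had an adjusted p under 0.05 (limma, Benjamini-Hochberg over all genes tested), a threshold that 1.88% of the 17974 genes passed. None of their 9 probes did either, where 1.73% of 22044 probes passed. At an unadjusted p under 0.05 there were 3, C3ar1, Cfb and Cfp, against a background of 24.1%. All 8 were well above background on all 4 arrays. In Rbpj-deficient cells 6 lay below control and 2 above, with a median log2 change of -0.14 beside -0.01 over all genes tested, of which 52.7% lay below 0. The 2 groups did not overlap for 6 of the 8, with 4 lower and 2 higher in Rbpj-deficient cells, while 59.1% of all genes tested had groups without overlap (32.3% lower and 26.8% higher). The receptor C3ar1 (-0.55) and factor B (0.56) stood farthest from 0, in opposite directions. As the cells were measured in bulk, fewer cells making a transcript and less transcript per cell cannot be told apart.

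**Figure D1:**
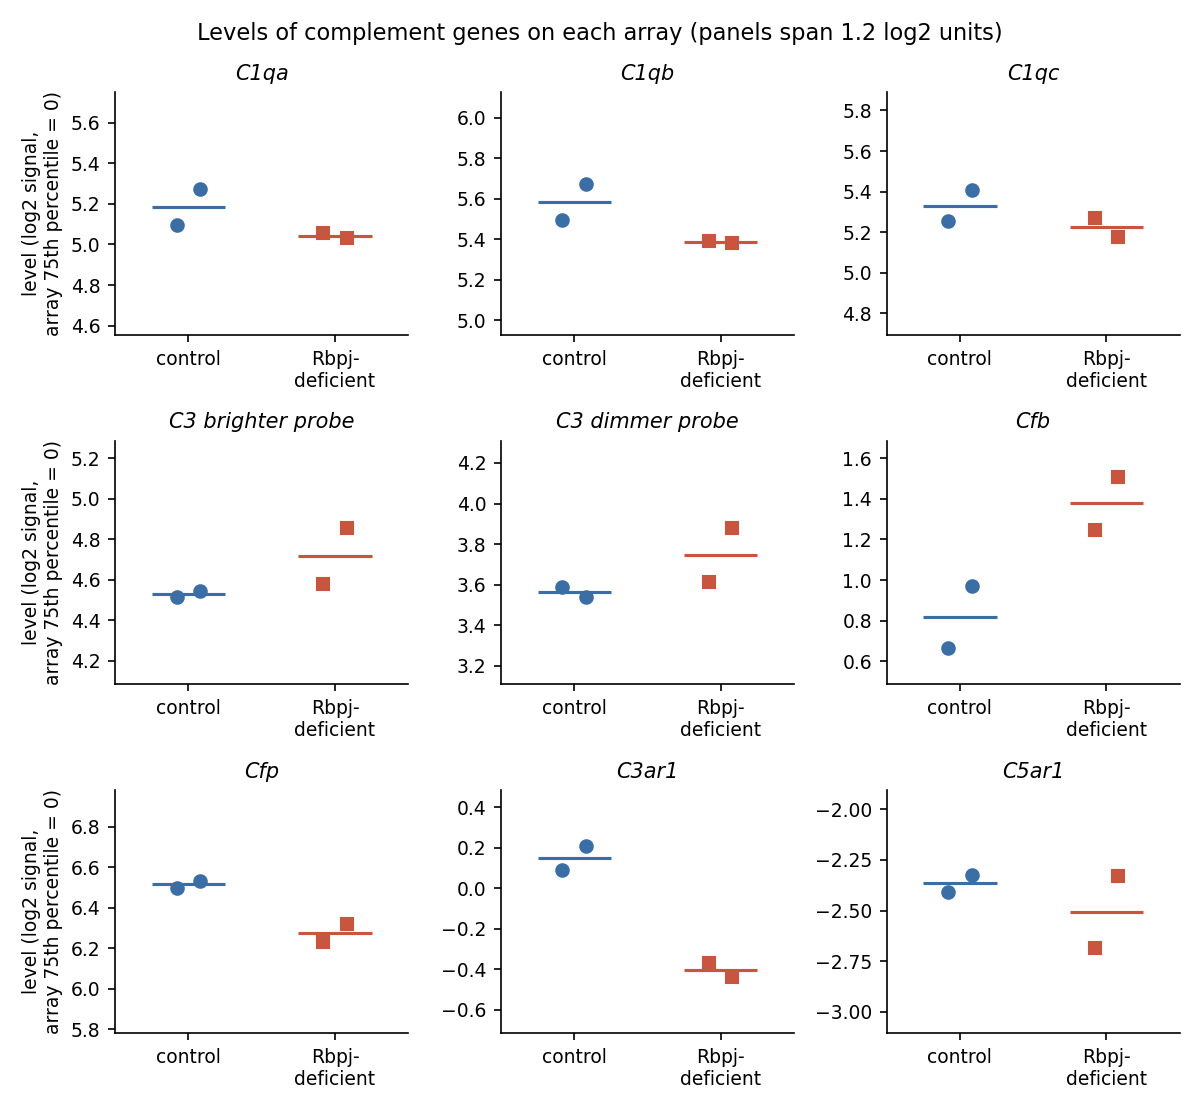
Level of each complement probe on each array, as log2 signal with the array's 75th percentile at 0; circles are the 2 control arrays, squares the 2 Rbpj-deficient arrays and lines the group means. C3ar1 and Cfb show the widest gaps between the groups, whereas the C1qc and C5ar1 arrays of the genotypes overlap.

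The 3 chains of C1q were strongly expressed and differed little between the genotypes. C1qa (probe A_51_P181451) read 5.10 and 5.27 in control and 5.06 and 5.03 in Rbpj-deficient cells. C1qb (A_51_P351860) read 5.49 and 5.67 in control and 5.39 and 5.38 in Rbpj-deficient cells. C1qc (A_51_P102789) read 5.25 and 5.41 in control and 5.27 and 5.18 in Rbpj-deficient cells. Control replicate 2 was the highest array for each chain, and for C1qc the lower control array lay inside the range of the deficient arrays. The log2 changes were -0.14 for C1qa (SE 0.08, 95% interval -0.37 to 0.08, limma adjusted p = 0.358), -0.20 for C1qb (SE 0.08, -0.43 to 0.03, adjusted p = 0.25) and -0.11 for C1qc (SE 0.08, -0.33 to 0.12, adjusted p = 0.475). The intervals reach down to a loss of 0.43 on the log2 scale for C1qb, so a modest difference is not excluded at this number of arrays. Without control replicate 2 the changes were smaller, at -0.05 for C1qa, -0.11 for C1qb and -0.03 for C1qc, and without control replicate 1 they were -0.23, -0.29 and -0.18.

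One C1q molecule needs all 3 chains, and their genes stand side by side on chromosome 4 in the RefSeq annotation of GRCm38.p6, in the order C1qb, C1qc, C1qa. The ratio of the C1qa to the C1qb signal, whose absolute size has no meaning between probes, was -0.40 in log2 in both control samples and -0.34 and -0.35 in the Rbpj-deficient ones, a shift of 0.06. The ratio of C1qb to C1qc shifted by -0.09, the most among the 3 pairs. Of the genes that flank the cluster, Ephb2 stood at -0.00 (adjusted p = 0.986), and Epha8 was not among the genes tested.

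The RefSeq promoter table held 6 of the 8 genes. The 250 bases before the annotated start of 2 of the C1q genes are shown because the chains kept nearly the same levels together. They read 5′ to 3′ on the gene's strand of GRCm38.p6 (C1qb at chr4:136886201-136886450, minus strand, and C1qc at chr4:136892915-136893164, minus strand). Capitals mark ACTTCCT, the reverse complement of AGGAAGT, a core bound by PU.1, a transcription factor of myeloid cells, and by its ETS relatives.
C1qb: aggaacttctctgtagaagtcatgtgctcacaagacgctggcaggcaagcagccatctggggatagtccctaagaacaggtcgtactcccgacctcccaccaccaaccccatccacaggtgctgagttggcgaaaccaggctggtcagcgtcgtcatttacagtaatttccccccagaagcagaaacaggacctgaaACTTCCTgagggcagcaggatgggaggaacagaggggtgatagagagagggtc
C1qc: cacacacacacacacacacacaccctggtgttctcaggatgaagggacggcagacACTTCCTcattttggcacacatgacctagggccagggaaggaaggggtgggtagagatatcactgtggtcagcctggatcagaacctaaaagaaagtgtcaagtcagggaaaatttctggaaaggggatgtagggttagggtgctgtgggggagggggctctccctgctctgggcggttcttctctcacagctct
The match lay 53 to 47 bases before the start of C1qb and 195 to 189 bases before that of C1qc. Of 32851 windows of this length in the table, 7.69% held AGGAAGT or its reverse complement. The match was not particular to C1q. The window of C5ar1 held 2, at 190 to 184 and 72 to 66 bases before its start, and those of C3, Cfp and C3ar1 held 0. The core of the RBPJ motif, TGGGAA or TTCCCA, was in none of the 6 windows of complement genes and in 21.6% of all windows. These motifs were chosen with the sequences in view, and a match or its lack in this window says nothing about binding.

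The alternative pathway genes differed among themselves. Factor B and C3 read higher in Rbpj-deficient cells and properdin lower, and none of the 3 passed. Cfb (A_51_P413866) read 0.66 and 0.97 in control and 1.25 and 1.51 in Rbpj-deficient cells. The groups did not overlap, with a gap between them of about the size of the spread inside each. Its log2 change was 0.56 (SE 0.15, 95% interval 0.15 to 0.98, limma adjusted p = 0.139), or 1.48-fold, and 6.35% of the genes tested had a larger change in either direction. Without one of the arrays it ranged from 0.41 to 0.71.

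C3 was measured by 2 probes that gave the same picture. The brighter (A_51_P110301) read 4.52 and 4.54 in control and 4.58 and 4.85 in Rbpj-deficient cells. The dimmer (A_55_P2038525) read 3.59 and 3.54 in control and 3.61 and 3.88 in Rbpj-deficient cells. On both probes Rbpj-deficient replicate 2 stood above the other 3 arrays, which lay close together. The log2 change was 0.19 on the brighter probe (SE 0.11, 95% interval -0.12 to 0.49, limma adjusted p = 0.373) and 0.18 on the dimmer (SE 0.11, adjusted p = 0.375 over all probes tested). Without Rbpj-deficient replicate 2 the value of the brighter probe was 0.05, and without Rbpj-deficient replicate 1 it was 0.32.

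The C3 promoter is shown for its match to TTGCGNAA, a motif of the C/EBP factors that drive acute-phase genes. This motif was in 0.67% of all windows and in none of the other 5 of complement genes (GRCm38.p6, chr17:57228137-57228386, minus strand, with the match in capitals 45 to 38 bases before the annotated start).
C3: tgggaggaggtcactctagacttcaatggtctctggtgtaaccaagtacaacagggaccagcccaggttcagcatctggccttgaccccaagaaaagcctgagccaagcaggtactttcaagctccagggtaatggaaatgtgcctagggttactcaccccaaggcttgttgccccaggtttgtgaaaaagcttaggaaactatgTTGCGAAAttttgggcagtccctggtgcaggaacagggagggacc

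Properdin, the one positive regulator of the cascade, was far above background on all arrays. Cfp (A_51_P408363) read 6.50 and 6.53 in control and 6.23 and 6.32 in Rbpj-deficient cells. Both deficient arrays lay below both control arrays, and the arrays of a genotype lay close together. The log2 change was -0.24 (SE 0.06, 95% interval -0.41 to -0.07, limma adjusted p = 0.132), or 84.6% of the signal of control cells. Cfb and C2, which code for the related proteases of the alternative and the classical convertase, are neighbours on chromosome 17. C2 stood at -0.14 (adjusted p = 0.458), on the other side of 0 from Cfb.

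Of the receptors, C3ar1 came nearest to the threshold of all 8 genes. C3ar1 (A_51_P282557) read 0.09 and 0.21 in control and -0.37 and -0.44 in Rbpj-deficient cells. The groups stood apart by several times the spread within either. The log2 change was -0.55 (SE 0.07, 95% interval -0.75 to -0.36, limma adjusted p = 0.0566), or 68.2% of the signal of control cells, and 6.59% of the genes tested had a larger change. C3ar1 passed with normexp background correction (adjusted p = 0.0325, where 4.93% of genes passed), with a filter on all 4 arrays (0.0463, 2.76%) and with a variance prior that followed the signal and was robust to outlying genes (0.0109, 8.61%). No complement gene passed with quantile normalisation (1.82% of genes passed), with the mean of a gene's probes (1.81%) or in the authors' deposited table tested the same way (1.94%). Over all 13 alternatives C3ar1's adjusted p ranged from 0.0109 to 0.304 and its log2 change from -0.61 to -0.49.

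C5ar1 (A_55_P2017681) read -2.41 and -2.32 in control and -2.69 and -2.33 in Rbpj-deficient cells. Rbpj-deficient replicate 2 lay within the control range and replicate 1 below it. The log2 change was -0.14 (SE 0.14, 95% interval -0.53 to 0.24, limma adjusted p = 0.573), 0.04 without Rbpj-deficient replicate 1 and -0.32 without replicate 2. The second C5a receptor, C5ar2, adjoins C5ar1 on chromosome 7 and stood at 0.02 (adjusted p = 0.892), or at -0.0084 with normexp and -0.012 with median scaling.

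The promoter of C3ar1 held 1 match to TGACTCA, the AP-1 motif, which 4.46% of all windows held and none of the other 5 of complement genes. It is shown because C3ar1 was the member with the smallest p (GRCm38.p6, chr6:122856158-122856407, minus strand, with the match in capitals 22 to 16 bases before the annotated start).
C3ar1: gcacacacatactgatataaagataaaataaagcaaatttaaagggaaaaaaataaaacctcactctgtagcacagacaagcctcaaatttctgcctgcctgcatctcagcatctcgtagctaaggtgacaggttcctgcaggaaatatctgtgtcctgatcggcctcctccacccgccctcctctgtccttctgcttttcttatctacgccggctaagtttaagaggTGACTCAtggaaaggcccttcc

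**Figure D2:**
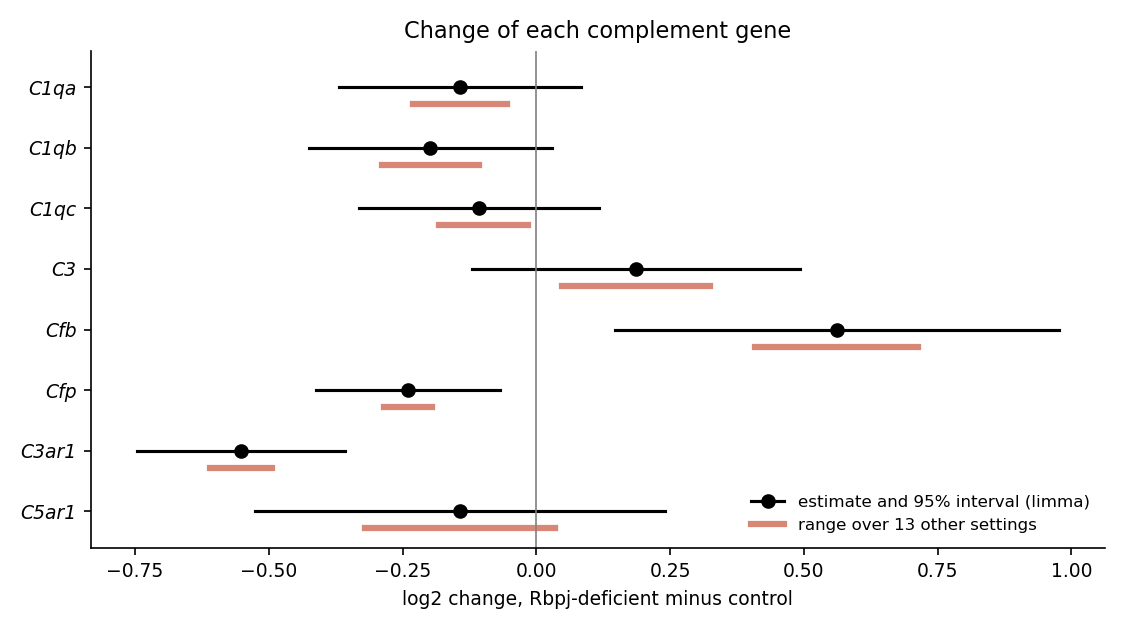
Log2 change of each complement gene, Rbpj-deficient minus control; black points and lines give the estimate and its 95% interval in limma with 2 arrays per group, and red bars the range of the estimate over the 13 other settings. The intervals of C3ar1, Cfp and Cfb leave out 0 before adjustment over all genes, and the range of C5ar1 crosses 0.

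**Figure D3:**
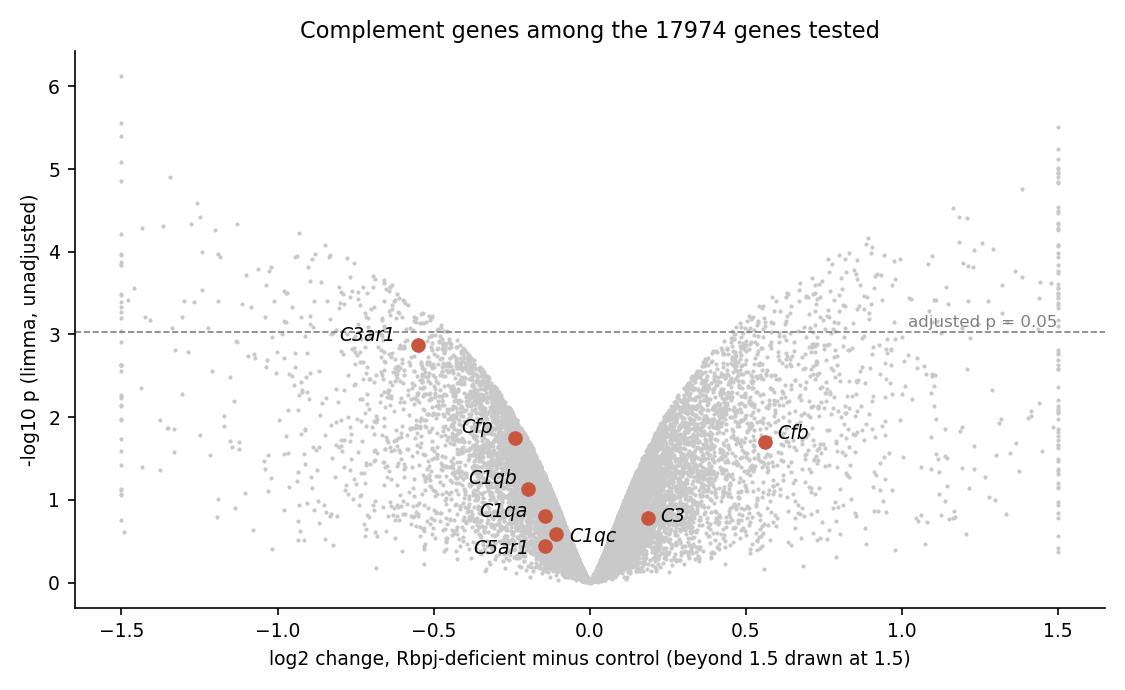
Log2 change, Rbpj-deficient minus control, against -log10 of the unadjusted limma p for 17974 genes (grey) with the 8 complement genes in red; changes beyond 1.5 are drawn at 1.5. All 8 lie below the dashed line, which marks an adjusted p of 0.05, and C3ar1 lies closest to it.

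The profile of C3ar1 over the 4 arrays, centred on its own mean, was most like those of Flrt3, an adhesion protein, Adora2a, an adenosine receptor, and Tgfbr3, a TGF-beta co-receptor. Their root mean square differences from C3ar1 were 0.0121, 0.0159 and 0.0188 on the log2 scale, the smallest among 12292 named genes well above background on all arrays. With 4 arrays many genes can share such a profile. Flrt3 stood at -0.54 (limma adjusted p = 0.0638), Adora2a at -0.58 (adjusted p = 0.0477) and Tgfbr3 at -0.57 (adjusted p = 0.0481). Both calls were lost with median scaling (0.0515 and 0.0534), with no filter, with the replicate block and without any 1 of the arrays, and that on Tgfbr3 also with quantile normalisation (0.0501) and in the authors' deposited table tested the same way (0.0513).

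Of 48 other genes of the cascade described here 45 were on the array and 23 were bright enough to be tested. None passed in limma in either direction, against a background of 0.84% lower and 1.04% higher. At an unadjusted p under 0.05 there were 6 of the 23, beside 24.1% of all genes tested. The median log2 change was 0.02, and 9 lay below 0, beside 52.7% of all genes tested. Cr2, Cd55b, Hc, Colec11 and Serping1 entered the test through the Rbpj-deficient arrays alone, and all of them lay above 0. Entry by that route favours the higher side, so no direction is read from this count or median. With normexp 3 of them passed, Clu, Cd59a and Fcna, and none passed without any 1 of the arrays, where 0 to 0.00556% of all genes passed.

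Of 6 regulators tested none passed, with 3 at an unadjusted p under 0.05 (24.1% of all genes). Clusterin (Clu), an inhibitor of the membrane attack complex that also acts as a chaperone, read 1.48 and 1.86 in control and 0.54 and 0.53 in Rbpj-deficient cells. Its groups stood well apart, differing by -1.13 in log2 (SE 0.14, limma adjusted p = 0.0549), and it passed with normexp (0.0251), with median scaling (0.0424, where 2.45% of genes passed), with the filter on all 4 arrays (0.0447) and with the robust variance prior (0.0130). Cd59a, which blocks the membrane attack complex at the cell surface, stood at -0.56 (adjusted p = 0.0662) and passed with normexp and with the robust prior. Susd4, a membrane protein with complement control repeats, stood higher at 0.26 (SE 0.06, adjusted p = 0.103) and passed with the robust prior. Cr1l (Crry), the broad membrane inhibitor of C3 in the mouse, stood at 0.03 (adjusted p = 0.767), and at -0.00 with median scaling. The regulators Cfi, Cd55, Cd46, Cd59b, Vtn, C4bp, Csmd1, Cpn1 and Cpn2 were not well above background on any array. Clu, Cd59a, Susd4 and Cr1l were picked out after their values were seen.

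None of 6 tested genes of the classical and lectin pathways passed in either direction. At an unadjusted p under 0.05 were 2 (24.1% of all genes). Fcna, a ficolin that recognises sugars on microbes, stood at -0.73 (limma adjusted p = 0.0845) and C4b, the source of the surface-bound part of the classical convertase, at 0.40 (adjusted p = 0.0766). With normexp Fcna passed (adjusted p = 0.0373), as it did with the robust prior (0.0311), while C4b stood at 0.21. C1ra, the protease that C1q carries, read -0.79 and -0.87 in control and -0.69 and -0.39 in Rbpj-deficient cells on its brighter probe. The log2 change of C1ra was 0.29 on that probe (adjusted p = 0.252) and 0.45 on its other probe. Its partner protease C1s1 was not well above background on any array, nor were Mbl1, Mbl2, Masp1, Fcnb and Colec10.

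Few genes of the terminal pathway were measurable. Of 7 terminal and alternative pathway genes on the array, those well above background in at least 1 genotype were Hc, which encodes C5 and stood at 0.02 (limma adjusted p = 0.916), and C8g, at 0.00 (adjusted p = 0.973), with a second probe of C8g at -0.24. Cfd, C6, C8a, C8b and C9 were not well above background on any array. None of 9 other complement receptors tested passed, with 1 at an unadjusted p under 0.05 (24.1% of all genes). That 1 was Itgb2, the shared beta chain of the complement receptors CR3 and CR4, at -0.29 (adjusted p = 0.0947), which passed with the robust prior. Itgam, the alpha chain of CR3, stood at 0.07 on its brightest probe, and its 3 probes ranged from -0.16 to 0.07. Cd93 stood at -0.30 (adjusted p = 0.233). Cr2 entered the test through the Rbpj-deficient arrays alone, being not well above background on either control array, and no direction is read from it. Vsig4, a C3b receptor of tissue macrophages, was not well above background on any array.

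**Figure D4:**
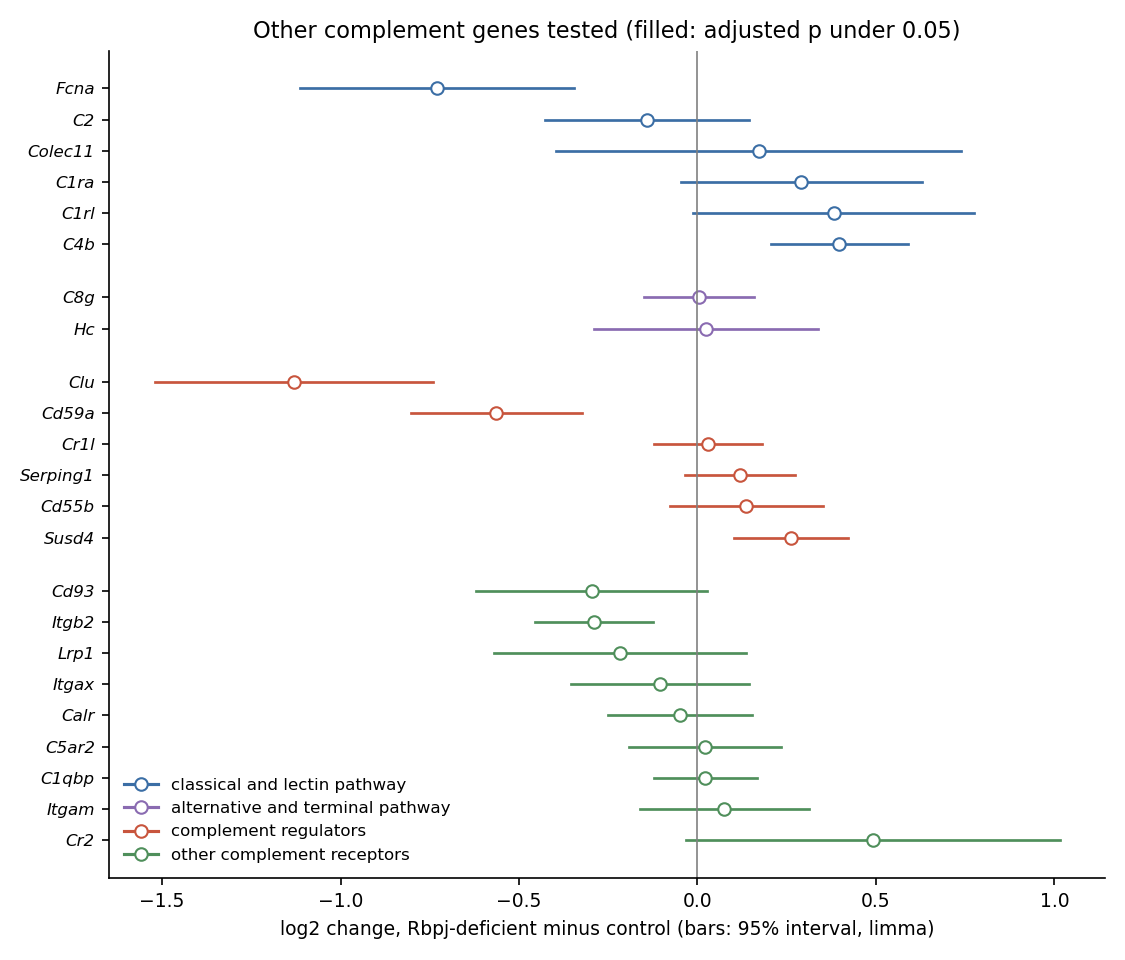
Log2 change, Rbpj-deficient minus control, of the 23 other complement genes tested, coloured by role; lines are 95% intervals in limma with 2 arrays per group, and a filled point has an adjusted p under 0.05. No point is filled, and Clu, Fcna and Cd59a lie farthest below 0.

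Markers of other cells were read beside these genes, since macrophages make C1q and neutrophils store properdin. Of 12 macrophage markers 10 were tested. Marco rose (1.29, limma adjusted p = 0.0322), Trem2 (-0.53, adjusted p = 0.0445) and Fcgr1 (-0.61, adjusted p = 0.0424) fell, and 7 did not pass. Of all genes tested 1.04% passed as higher and 0.84% as lower. At an unadjusted p under 0.05 were 5 of the 10 (24.1% of all genes). The summed signal of the 10, in multiples of the array's 75th percentile, was 275 to 288 in control and 266 to 273 in Rbpj-deficient cells. Cd163 was not well above background on any array. Of 8 neutrophil markers tested, Mpo (0.74, adjusted p = 0.0378) and Ngp (0.54, adjusted p = 0.0445) rose and none fell, with 7 at an unadjusted p under 0.05 (24.1% of all genes). Their summed signal was 21.7 to 24.9 in control and 36.3 to 45.0 in Rbpj-deficient cells, and Retnlg was not well above background. The sum weighs the brightest most, S100a9 (0.85, limma adjusted p = 0.0813) and S100a8 (0.83, adjusted p = 0.0712), which did not pass. Elane alone lay below 0, at -0.14 (adjusted p = 0.264). The calls on Marco, Trem2, Fcgr1, Mpo and Ngp were lost without any 1 of the arrays. They were also lost with no filter on dim probes and with the replicate block (adjusted p = 0.0865 to 0.288). That on Ngp was lost with median scaling too (0.0582), and that on Trem2 with quantile normalisation (0.0504).

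The 7 monocyte markers tested summed to 64.6 to 70.4 in control and 64.6 to 103 in Rbpj-deficient cells. Of these 1 passed as lower (0.84% of all genes tested), and the median log2 change of the 7 was -0.28. The 5 tested of mast cells, basophils and eosinophils summed to 4.35 to 4.44 in control and 3.58 to 3.67 in Rbpj-deficient cells. Of these 1 passed as higher (1.04% of all genes tested) and 1 as lower (0.84%), and the median log2 change of the 5 was 0.48. The sum weighs the brightest marker most, Siglecf at -0.63. Prg2 stood at -0.10, while Cpa3 (0.77), Mcpt8 (1.13) and Hdc (0.48) stood higher. The 4 tested of B, T and natural killer cells summed to 3.93 to 3.96 and 3.32 to 3.75, with 1 passing as higher (1.04% of all genes). Their median was 0.51, with Cd4 (-0.25), the brightest, and Cd3e (-0.13) lower and Cd3g (1.40) and Klrb1c (1.14) higher. Ms4a1 and Ncr1 were not well above background. The 9 dendritic cell markers tested summed to 728 to 759 in control and 664 to 704 in Rbpj-deficient cells. None of them passed, with 4 at an unadjusted p under 0.05 (24.1% of all genes). None of 5 liver markers was tested, and Apoa1, Fgb and Ahsg were not well above background on any array. The part of other cells in the levels of the complement genes was not tested.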

How the data were processed

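Per the labels, Cy3-labelled RNA (150 ng) of each sample was hybridised to an Agilent mouse array read in one colour. The deposited intensity of each spot comes, per the file headers, from Agilent Feature Extraction 10.7.1.1 after background subtraction and spatial detrending, with no scaling between arrays. The steps behind the authors' deposited log2 table are not given in the sources used here, and it served as an alternative.

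Signal was taken to log2 minus each array's 75th percentile over spots for genes. Spots called outliers (127 to 176 per array) were left out, and 0 were saturated. A probe was kept where both arrays of 1 or both genotypes read it well above background, and the brightest probe by mean stood for its gene. The comparison used limma 3.58.1 (R 4.3.3) and Benjamini-Hochberg adjustment across 17974 genes (or 22044 probes). Accessions were named through RefSeq annotation of GRCm38.p6, which gave 26055 of 39429 probes 1 symbol and 13374 none. The headers name build mm9, so the annotation served for names, gene order and promoters. Normexp used spot and local background medians with an offset of 50. The code was tested on simulated data.

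The members and lists were chosen with earlier results of these data known. One complement gene and one marker of the lists are not reported here. Text names the members, in each other list those past the threshold or else the 2 farthest from 0, Rbpj and Itgax, and the 3 profiles most like the member with the smallest p. C1ra, C2, C5ar2, Itgam, Itgb2, Clu, Cd59a, Susd4, Cr1l and the markers and uptake genes with values were named after these were seen.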

Additional observations from a re-analysis of the deposited data

How the results depend on the processing

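Over 13 alternatives the 8 complement genes gave 104 values, of which 100 kept their direction and their side of the threshold. Much of this was fixed by design. Both changes of filter, the robust prior and the replicate block cannot alter the log2 change of these genes. Nor can the mean of a gene's probes where a gene has 1 probe. In settings where almost no gene of the array passed, staying short of the threshold was nearly fixed too. The count is therefore no measure of robustness. C3ar1 passed in 3, at -0.53 with normexp and at -0.55 with the filter on all 4 arrays and with the trend and robust variance prior, so that the count of complement genes that passed was 1 in each. C5ar1 ranged from -0.32 to 0.036 without one of the arrays. Of the 23 other complement genes 0 passed, against 3 with normexp (4.93% of all genes) and 1 with median scaling (2.45%). With the filter on all 4 arrays 1 passed (2.76%), with the robust prior 5 (8.61%) and with the replicate block 0. Over all genes 338 passed, against 886 with normexp, 1547 with the robust prior, 0 with no filter (32496 genes tested, 3655 at an unadjusted p under 0.05), 0 with the replicate block (3677 at an unadjusted p under 0.05) and 0 to 1 without one of the arrays, where fewer arrays are left and an arm of 1 array takes its spread from the other. Apart from this, and from fewer or more genes tested, the cause was not tested.

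Differences between replicates 1 and 2 in the 2 genotypes correlated at -0.05 across genes. With 1 such difference per genotype, this cannot settle whether the replicate numbers pair the samples. The replicate block left each log2 change as it was (C3ar1 -0.55, limma adjusted p = 0.126) and altered the SE. That of Cfb went from 0.15 to 0.066 (adjusted p = 0.113) and that of C3ar1 from 0.07 to 0.083. Values near 0 changed sign. With median scaling Hc stood at -0.0084, C8g at -0.028, Cr1l at -0.0021 and C5ar2 at -0.012. C5ar2 stood at -0.0084 with normexp. With the mean of the gene's probes C8g stood at -0.12 and Itgam at -0.032. Without one of the arrays Hc ranged from -0.11 to 0.16, C8g from -0.023 to 0.031, C5ar2 from -0.060 to 0.10 and Itgam from -0.00082 to 0.15.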

Other observations

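C1q and properdin also serve to mark dying cells for uptake, so 21 genes of that process were read as well, in a list drawn up after the other results were known. Of the 16 tested none passed in limma, with 8 at an unadjusted p under 0.05 (24.1% of all genes) and 11 below 0 (52.7% of all genes), and the median log2 change was -0.13. The scavenger receptor Cd36 stood farthest from 0, at -0.70 (limma adjusted p = 0.0502). It passed with normexp (0.0197, where 4.93% of genes passed) and with median scaling (0.0398, 2.45%). The filter on all 4 arrays (0.0407, 2.76%) and the robust prior (0.0074, 8.61%) let it pass too. It did not pass with quantile normalisation (0.0563), the mean of a gene's probes (0.0519) or the authors' deposited table (0.0521). Nor did it with the replicate block (0.103) or no filter (0.286). The receptor Tyro3 stood at -0.58 (adjusted p = 0.153), its ligand Pros1 at -0.42 (adjusted p = 0.161) and thrombospondin Thbs1 at -0.56 (adjusted p = 0.0663). Thbs1 passed with normexp (0.0373) and the robust prior (0.0130), and Tyro3 with normexp (0.0419). Neither passed in the other settings that kept all arrays. On the higher side Elmo1, which helps drive engulfment, stood at 0.38 (adjusted p = 0.151) and the integrin chain Itgav at 0.20 (adjusted p = 0.175). The related receptor Mertk overlapped between the genotypes, at -0.15 (adjusted p = 0.437), and the bridging protein Mfge8 stood at 0.16 (adjusted p = 0.281). Timd4, Havcr1, Scarf1 and Megf10 were not well above background on any array.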
